A study of Mus musculus with 32 samples.

Results

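Of the 28944 probesets on the array, 25 name exactly 1 immunoglobulin or T-cell receptor segment or constant-region gene, and these 25 are described here across all sample groups. They were chosen by gene symbol alone: every probeset whose single gene in the platform annotation is a variable or joining segment, or a constant-region gene, of an antigen receptor locus. The members fall in 6 loci, with 6 heavy-chain (Igh), 9 kappa light-chain (Igk), 7 T-cell receptor alpha (Tra), 1 beta (Trb), 1 delta (Trd) and 1 gamma (Trg) probesets, and none of the lambda locus. The 25 probesets carry 20 different names, because Ighm is named by 3 of them and Igha, Igkv19-93 and Trav14-1 by 2 each. A further 58 probesets name several genes that include such segments, and they enter only as counts unless stated.

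B and T lymphocytes build their antigen receptor genes by V(D)J recombination, in which the Rag1 and Rag2 recombinase joins 1 variable segment to joining (and, in some loci, diversity) segments in front of a constant region. The heavy chain is joined at the proB stage and the light chain, in mice mostly kappa, at the preB stage. A polyclonal B-cell population therefore transcribes many rearranged variable segments at once, whereas the cells of a clone carry 1 productive heavy-chain join. Segments that are not yet joined also give germline transcripts, and Pax5 takes part in opening and contracting the heavy-chain locus. T-cell receptor transcripts are known to occur in early lymphoid progenitors as well as in T cells.

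The series compared RNA of leukemic bone marrow with healthy B-cell precursors in mice that lack 1 Pax5 allele, with or without loss of Myd88, the adaptor of most Toll-like receptors. The leukemia experiment held 6 Pax5+/-;Myd88+/- leukemias, 6 Pax5+/- leukemias and 4 samples of sorted wild-type (WT) proB/preB cells, gated as B220low IgM-. The proB experiment held B220+ marrow cells of healthy mice, with 4 arrays of WT cells, 4 of Pax5+/-, 4 of the compound heterozygote Pax5+/-;Myd88+/- and 4 of Pax5+/-;Myd88-/-. The methods add that such cells, from mice a few weeks old, were expanded with IL7 on ST2 stromal feeder cells, without describing the Myd88-null cultures, and all 4 groups are called proB cultures here. Mice were of a mixed C57BL/6 and CBA background, and the labels have them moved from pathogen-free to conventional housing at 2 months of age. The culture arrays carry this label too, which conflicts with the age of a few weeks that the methods give for such cultures. The alleles are constitutive, so non-B cells in a sample carry them too, and no leukemia was set beside healthy cells of its own genotype in the same preparation.

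The values are log2 expression levels, with array medians between 6.88 and 7.03. No detection calls were used here, so levels well below these medians were not shown to lie above background, and a fold against such a level is one of array signal and may understate the change in RNA. Myd88 read 7.04 to 7.44 in the Pax5+/-;Myd88-/- cultures, 8.51 to 8.78 in Pax5+/-;Myd88+/- cultures and 9.21 to 9.35 in Pax5+/- cultures, in the order of the labels. Pax5 read 11.53 to 11.81 in WT cultures and 10.86 to 11.41 in the Pax5+/- cultures of all Myd88 genotypes, and 7.69 to 12.29 in the leukemias. Arrays of a culture group correlated at r = 0.9906 to 0.9982 over all probesets and arrays of a leukemia group at 0.9666 to 0.9905. Among the WT cultures, replicates 1 and 3 (r = 0.9982) and 2 and 4 (r = 0.9979) stood closer than any other pairing (at most 0.9912), the same pairs stood closest in the Pax5+/- cultures (0.9965 and 0.9976, others at most 0.9951), and the labels number arrays as biological replicates without naming mice or cultures, so p-values measure the spread between these arrays. The 10 measured markers of proB and preB cells averaged 10.96 to 11.94 in the cultures, 11.04 to 11.38 in the sorted samples and 8.16 to 11.33 in the leukemias. Averages of 12 NK-cell markers were 7.71 to 8.49 in the sorted WT samples and 5.60 to 6.59 on all other arrays, and those of 6 plasmacytoid dendritic cell markers were 9.96 to 10.33 in sorted samples, 8.25 to 11.99 in leukemias and 7.43 to 8.57 in cultures. Averages of 9 myeloid markers were 7.04 to 10.70 in the leukemias, 7.51 to 8.99 in the sorted samples and 6.46 to 6.80 in the cultures. The part of these cell types in the results below was not tested.

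A limit on the names stands before all heavy-chain results. The platform annotation gives all 6 Igh probesets the names of constant regions, Ighm, Igha and Ighg3, which encode the mu, alpha and gamma3 chains. A later annotation of the same array, used in the study's tables, names at least 1 variable segment for each of the 6. It has Ighv2-4 for Ighm probeset 10402991, Ighv1-82 together with Ighm for 10403069 and a list of 46 heavy-chain names for 10402864. The 2 Igha probesets are Ighv8-8 (10403034) and Ighv8-12 (10403063) there, and the Ighg3 probeset is Ighv1-63 (10403046). Levels of these 6 probesets are therefore given as heavy-chain signal and not as isotypes. The Trgv1 probeset reads Trgj4 and Tcrg-C4 in that annotation, genes of the cluster that Trgv1 joins to, and 1 of the Trav14-1 probesets (10414953) reads Trav15-1-dv6-1 with a cDNA. In RefSeq coordinates of build GRCm38.p6, Ighm lies at chr12:113418826-113422730, Igha at chr12:113256204-113260236 and Ighg3 at chr12:113357442-113361232. The 9 kappa probesets name segments between chr6:68049983-68050454 (Igkv9-120) and chr6:70335841-70336479 (Igkv6-20), Trgv1 lies at chr13:19340016-19340454 and Trav14-1 at chr14:53554057-53554558.

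Sorted WT precursors carried the highest heavy-chain signal of all groups by group mean at each of the 6 probesets, and every leukemia and culture was set against them. The 4 sorted arrays read 10.54, 9.89, 10.61 and 10.15 at Ighm/Ighv1-82, 11.33, 10.85, 11.34 and 11.14 at Ighm/Ighv2-4, and 10.74, 10.20, 10.83 and 9.60 at Ighg3/Ighv1-63. The kappa segments were more uneven among these healthy samples. Igkv19-93 (10545177) read 12.19, 10.29, 13.69 and 10.20, a range of over 10-fold, whereas Igkv9-120 read 10.67, 10.61, 10.34 and 10.49. Igkv10-96 read 9.23, 8.98, 8.92 and 9.13, and Igkv6-20 read 8.35, 8.27, 8.20 and 8.43. Sorted replicate 3 was the array that stood highest at Igkv19-93, Igkv4-55 and Igkv8-30.

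**Figure D1:**
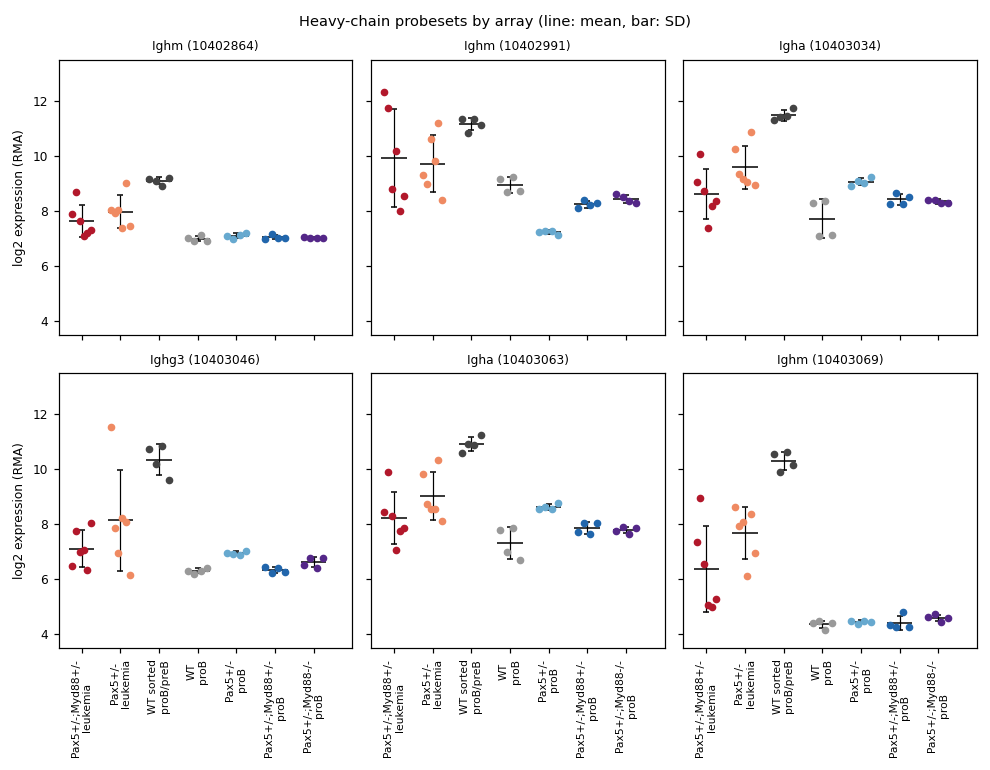
Log2 expression (vertical axis) of the 6 heavy-chain probesets in the 7 groups, with 1 point per array, a line at the group mean and a bar of 1 SD; each panel gives the platform name and the probeset number. Sorted WT arrays lie highest by mean in every panel, the WT cultures split into pairs at the Igha probesets, and the leukemias spread least at Ighm 10402864 (SD 0.592 and 0.589).

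Pax5+/-;Myd88+/- leukemias had lower immunoglobulin signal than sorted WT precursors. By limma with Benjamini-Hochberg adjustment over all probesets, an adjusted p under 0.05 and a change of more than 1 log2 unit, 10 of the 25 members were called and all 10 were lower, beside 7.63% of all probesets called in either direction (3.33% higher and 4.3% lower). They were 5 of the 6 heavy-chain probesets, 4 of the 9 kappa segments and Trgv1, and the median difference was -1.0 log2 over the members against -0.01 over all probesets. For 10 of the 25 the groups did not overlap, beside 27.5% of all probesets. Ighm/Ighv1-82 read 4.99 at the lowest, 5.93 at the median and 8.94 at the highest of the 6 leukemias, all below the sorted arrays. Its difference was -3.93 log2 (SE 0.69, 15.3-fold lower, adjusted p = 0.000418). Ighg3/Ighv1-63 read 6.33, 7.03 and 8.05 at the lowest, median and highest leukemia, a difference of -3.23 (SE 0.75, adjusted p = 0.00369).

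The 2 Igha probesets fell by 2.84 and 2.68 log2 in these leukemias (adjusted p = 0.000164 and 0.000522) and the third Ighm probeset, 10402864, by 1.45 (adjusted p = 0.00223). Ighm/Ighv2-4 was the exception. It read 12.34 and 11.73 in leukemia replicates 1 and 2, above every sorted array, and 8.0 to 10.18 in the other 4, which gave a difference of -1.23 (SE 0.77, adjusted p = 0.255) that did not pass. Among the kappa segments, Igkv19-93 (10545177) fell by 3.44 log2 (SE 0.89, 10.8-fold, adjusted p = 0.00767) and Igkv9-120 by 2.01 (SE 0.59, adjusted p = 0.0165). The other probeset named Igkv19-93, 10545182, differed by -0.63 (adjusted p = 0.252). Igkv8-30 (-1.42, adjusted p = 0.0327) and Igkv6-20 (-1.69, adjusted p = 0.0304) were near the threshold. Leaving out any 1 of sorted replicates 1 and 3 or leukemia replicates 1, 4, 5 and 6 ended the call of Igkv8-30 (adjusted p up to 0.138), and leaving out any 1 of the sorted replicates or leukemia replicates 4 and 5 ended that of Igkv6-20 (adjusted p up to 0.0691).

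Pax5+/- leukemias were compared with the same 4 sorted arrays, so the comparisons share their controls. The calls were 6 of the 25 members, all lower, beside 4.44% of all probesets (2.73% higher and 1.72% lower): 5 heavy-chain probesets and Trgv1, and 0 of the 9 kappa segments (also 0 at an unadjusted p under 0.05). The groups did not overlap at 4 of the 25, beside 21.2% of all probesets. Ighm/Ighv1-82 read 6.12 at the lowest, 8.01 at the median and 8.61 at the highest leukemia and differed by -2.62 log2 (SE 0.69, 6.14-fold lower, adjusted p = 0.0123). The Igha probesets fell by 1.88 each (adjusted p = 0.00695 and 0.0106). Ighm 10402864 fell by 1.11 (adjusted p = 0.0183), and was no longer called without sorted replicate 4 (adjusted p = 0.0525) or leukemia replicate 4 (a difference of -0.99).

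Ighg3/Ighv1-63 in the Pax5+/- leukemias held the widest gap of any member. Replicate 1 read 11.54, above all sorted arrays, and the other 5 read 6.17 to 8.22, so that replicate 1 was 3.32 log2 units (9.99-fold) above the next. The group difference of -2.20 (SE 0.75, adjusted p = 0.0433) was lost without any 1 sorted array or any 1 of Pax5+/- replicates 2 to 6 (adjusted p up to 0.11), and without replicate 1 the adjusted p was 0.000499. At the kappa segments of this group, single leukemias lay on both sides of the sorted range. Igkv10-96 read 12.24 in replicate 6, 10.50 in replicate 5 and 8.29 to 9.57 in the others, a difference of 0.76 (SE 0.62, adjusted p = 0.395). Igkv6-20 read 9.77 and 9.48 in replicates 3 and 5, above the sorted arrays, and 6.56 to 8.12 in the others.

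Set against each other, Pax5+/-;Myd88+/- leukemias were lower than Pax5+/- leukemias at 2 of the 25 members, beside 3.82% of all probesets called (1.25% higher and 2.57% lower). Both were kappa segments. Igkv9-120 read 7.07, 8.87 and 9.55 at the lowest, median and highest Pax5+/-;Myd88+/- leukemia and 8.46, 10.28 and 11.44 at those of the Pax5+/- leukemias, a difference of -1.56 (SE 0.53, adjusted p = 0.0329). Igkv6-20 differed by -1.46 (SE 0.50, adjusted p = 0.0335). No member, 0 of the 25, separated the groups without overlap, beside 14.3% of all probesets. The count was 0 without any 1 of Pax5+/-;Myd88+/- replicates 4 and 6 or Pax5+/- replicates 3 and 5, it was 1 without Pax5+/-;Myd88+/- replicate 3 or 5 or Pax5+/- replicate 6, and it rose to 7 without Pax5+/-;Myd88+/- replicate 2. It was 0 when only these 12 arrays were fitted, where both segments had adjusted p near 0.07 (0.0673 and 0.0686).

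**Figure D2:**
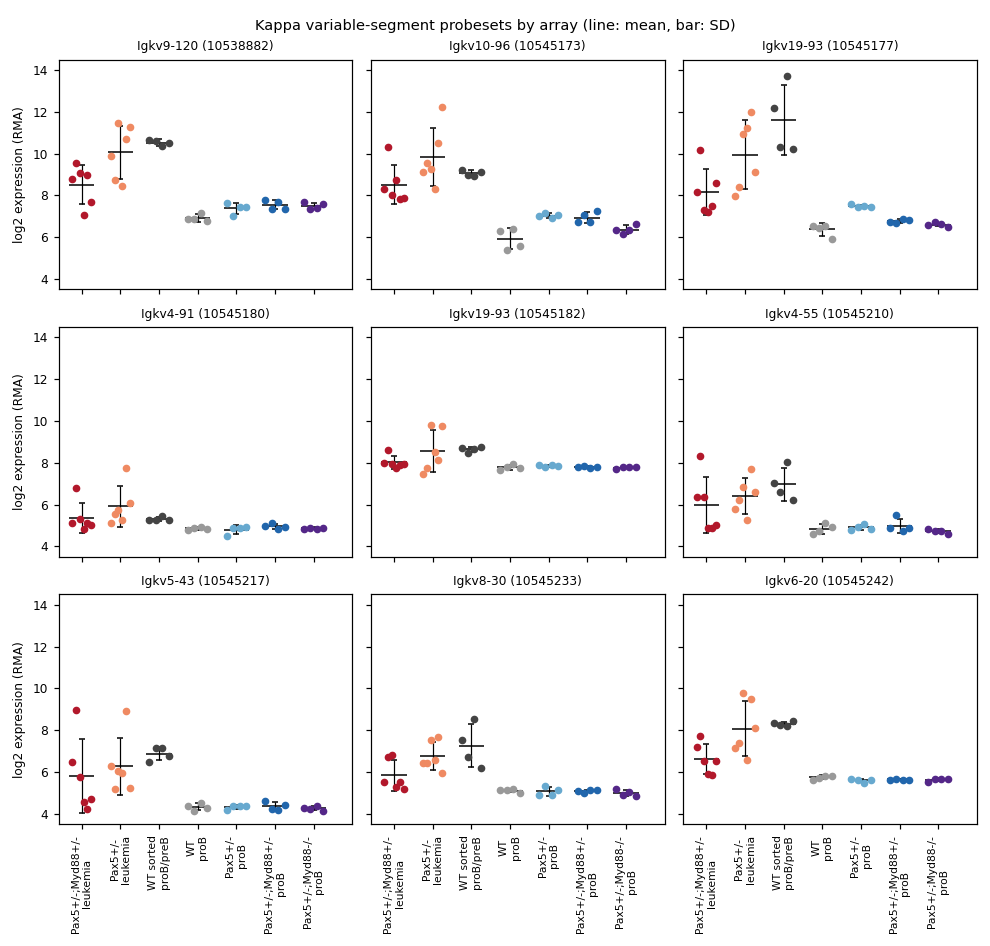
Log2 expression (vertical axis) of the 9 kappa variable-segment probesets in the 7 groups, with 1 point per array, a line at the group mean and a bar of 1 SD. Culture arrays of all genotypes lie below the sorted WT arrays in every panel, and single leukemias rise above or fall below the sorted range at different segments.

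Spread between arrays was read as the sign nearest to clonality, since clones of different mice can carry different joins, and clonality itself was not tested. Heavy-chain probesets had a median SD between arrays of 0.93 log2 in Pax5+/-;Myd88+/- leukemias, 0.91 in Pax5+/- leukemias and 0.25 in sorted WT samples. Kappa segments had median SDs of 0.93, 1.27 and 0.15 in the same groups. Over all probesets the median SD was 0.155, 0.170 and 0.0974, and 0.199, 0.213 and 0.110 where the mean level was 6 or more. T-cell receptor alpha segments were close to these backgrounds, with median SDs of 0.136, 0.111 and 0.0829, at median levels of 4.73, 4.56 and 4.555. Such levels lie well below the array medians. Wide spread was not confined to immunoglobulin probesets. Gamma-locus probesets 10403821 and 10407940 name several segments. Their SDs were 1.92 and 1.52 in Pax5+/-;Myd88+/- leukemias, 1.71 and 1.75 in Pax5+/- leukemias and 0.55 and 0.61 in sorted samples. At 10403816 they were 0.36, 0.54 and 0.14. All were picked for their calls in the Myd88-null cultures, given below. In the cultures the locus medians of the heavy-chain and kappa probesets lay between 0.09 and 0.21.

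A test of each probeset's absolute deviations from its group median, again with limma and adjustment over all probesets, called 0 of the 25 members as more spread in either leukemia group than in the sorted samples. At an unadjusted p under 0.05 the counts were 2 and 3 of 25. The share of all probesets at that unadjusted threshold was not counted. After adjustment, the test called 0.00345% and 0.038% of all probesets, so few calls were made on any gene with 6 and 4 arrays. The largest SDs were those of Ighm/Ighv2-4 (1.79), Igkv5-43 (1.77) and Ighm/Ighv1-82 (1.57) in Pax5+/-;Myd88+/- leukemias. In Pax5+/- leukemias they were those of Ighg3/Ighv1-63 (1.84), Igkv19-93 (10545177, 1.66) and Igkv10-96 (1.38).

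**Figure D3:**
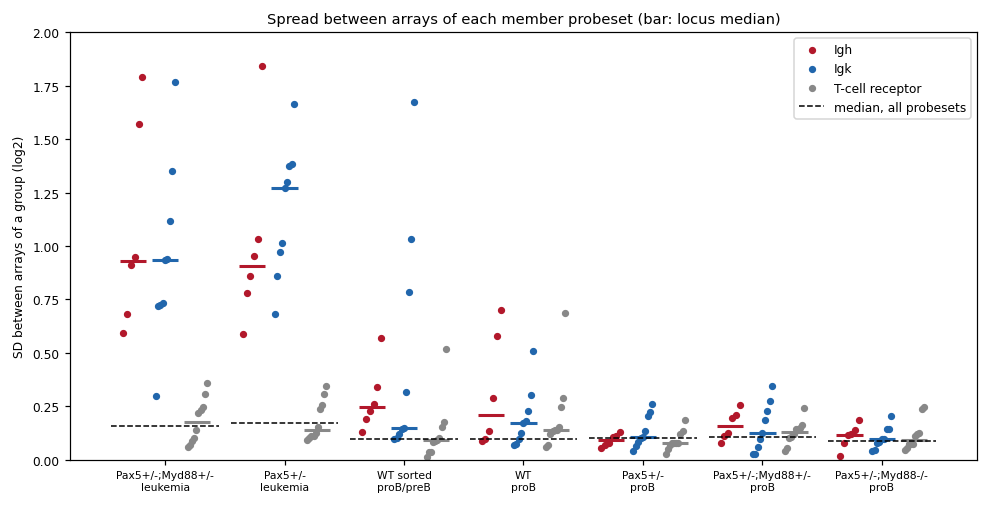
SD between the arrays of a group (log2, vertical axis) for each member probeset, coloured by locus, with a short bar at the locus median and a dashed line at the median of all probesets in that group. All heavy-chain and 8 of 9 kappa probesets exceed an SD of 0.5 in the Pax5+/-;Myd88+/- leukemias (Igkv19-93 10545182 has 0.298), all 15 do in the Pax5+/- leukemias, and the T-cell receptor probesets lie below it, Trgv1 (0.359 and 0.306) and Trbv1 (0.308 and 0.343) highest among them.

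Some single leukemias stood apart from their group at several members. An array was called apart when it lay more than 1 log2 unit above the next highest of its group, a description with no test. In Pax5+/-;Myd88+/- leukemias this held for 8 of the 25 members, beside 2.47% of all probesets, and replicate 2 was the high array in all 8. Of the 19 probesets that the platform names as variable segments, 5 were among them. Its Igkv5-43 read 8.97 against 6.49 for the next array (5.58-fold) and its Igkv4-55 read 8.33 against 6.38 (3.86-fold). Replicate 2 was also the high array at 327 of the 716 probesets of the whole array that met the criterion, and replicate 4, which led 237 of these, led at 0 members. Without replicate 2, the count of variable segments fell from 5 to 1.

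In Pax5+/- leukemias 4 of the 25 members met the criterion, beside 1.51% of all probesets, and 3 different arrays led. Replicate 1 led at Ighg3/Ighv1-63, as given above, replicate 6 at Igkv10-96 (12.24 against 10.50, 3.34-fold) and replicate 5 at Igkv4-91 (7.76 against 6.09) and Igkv5-43 (8.92 against 6.28, 6.23-fold). These kappa segments were not private to this group, since Pax5+/-;Myd88+/- replicate 2 also stood apart at Igkv10-96, Igkv4-91 and Igkv5-43. Without replicate 3, the count of variable segments rose from 3 to 7. The sorted WT samples were not free of such segments, with 3 of 25 members beside 0.111% of all probesets, all kappa and all led by replicate 3 (Igkv19-93 at 13.69 against 12.19, Igkv4-55 at 8.05 against 7.02 and Igkv8-30 at 8.56 against 7.55). Pax5+/-;Myd88+/- replicate 2 stood apart at Igkv19-93 and Igkv4-55 too. In the cultures, Trav14-1 in WT replicate 4 was the single case, beside 0.00345% of all probesets in that group.

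The 15 immunoglobulin probesets often moved together within a leukemia. In the Pax5+/-;Myd88+/- group, replicate 2 was the highest array at 12 of the 15, and replicates 4, 5 and 6 were below every sorted array at all 15. Replicate 4 was the lowest of its group at 8 and replicate 5 at 6. In the Pax5+/- group, replicate 5 was highest at 9 of the 15. Replicates 3 and 5 each exceeded every sorted array at 5 of the 15 and replicate 6 at 4. For single leukemias, the share of all probesets above or below every sorted array was not counted. Replicate 6 had the lowest mean heavy-chain level of its group (7.68) and the third-highest mean kappa level (8.27), so the loci did not rank the arrays alike.

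**Figure D4:**
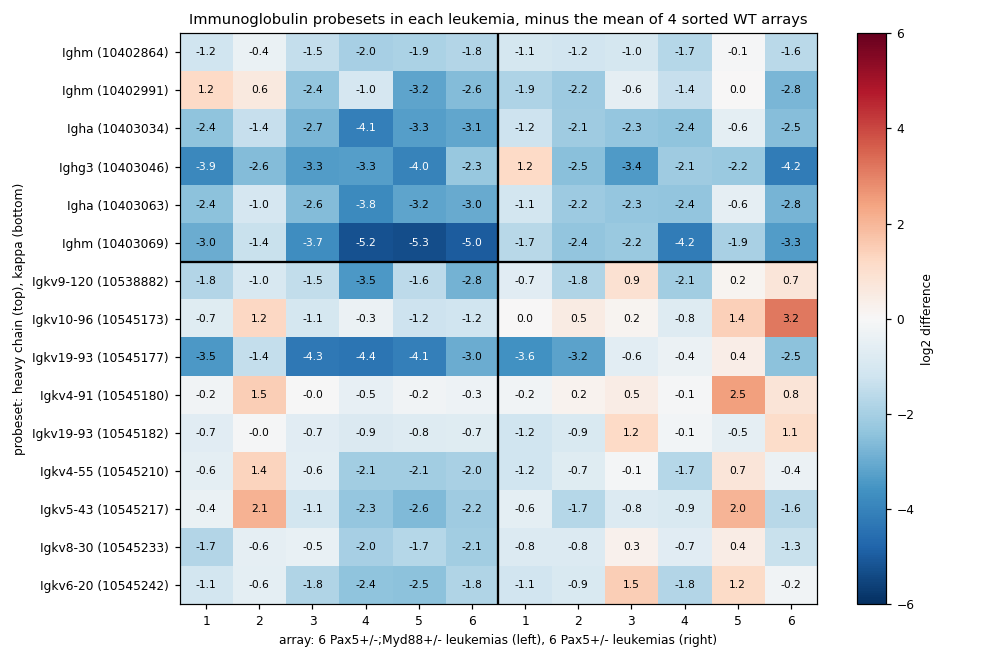
Each cell is the log2 expression of 1 immunoglobulin probeset (rows, heavy chain above and kappa below) in 1 leukemia (columns, replicates 1 to 6 of each genotype) minus the mean of the 4 sorted WT arrays; red is higher and blue lower. Replicate 2 of the Pax5+/-;Myd88+/- group and replicates 3, 5 and 6 of the Pax5+/- group hold most of the red kappa cells, and the heavy-chain block is blue with few exceptions.

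Markers of later B-cell stages were read beside these values. In bulk RNA, fewer cells of a type and less RNA per cell cannot be told apart. Averages of 8 mature B-cell markers were 7.03 to 8.09 in Pax5+/-;Myd88+/- leukemias, 7.23 to 9.19 in Pax5+/- leukemias, 8.44 to 8.67 in sorted samples and 6.50 to 6.73 in the cultures. Pax5+/- replicate 5, highest at most immunoglobulin probesets, had the lowest of these averages in its group, and replicate 4 with the highest average (9.19) was highest at 0 of the 15. In the Pax5+/-;Myd88+/- group, replicate 2 (8.05), highest at most immunoglobulin probesets, and replicate 4 (8.09), lowest at 8 of the 15, had the highest of these averages. Averages of 7 plasma-cell markers were 7.68 to 8.42 and 8.07 to 8.82 in the leukemia groups and 7.93 to 8.53 in the sorted samples. Jchain, 1 of these 7 markers and the joining chain of secreted antibody, read 12.67 and 11.26 in Pax5+/-;Myd88+/- replicates 1 and 2. These are the arrays with the highest Ighm/Ighv2-4, and Jchain read 6.53 to 10.58 in the other 4. The plasma-cell averages were 8.42 and 8.29 in replicates 1 and 2 and 7.68 to 8.17 in the other 4. They include Jchain, so by themselves they do not show that the other markers of the list were higher in replicates 1 and 2. The remaining markers of the list were not set beside Ighm/Ighv2-4 singly. The part of these cell types in the values was not tested.

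Genes that act on the loci were given as 3 fixed lists. Of 14 transcription and chromatin regulators of the immunoglobulin loci, 8 were lower in Pax5+/-;Myd88+/- leukemias and 6 in Pax5+/- leukemias than in sorted WT cells, and 0 were higher in either. Over all probesets, 4.3% and 1.72% were lower in these comparisons, and 3.33% and 2.73% were higher. The largest difference was that of Ikzf3, the lymphoid factor Aiolos, at -4.66 (adjusted p = 2.25e-06) and -3.57 log2 (adjusted p = 8.65e-05). Irf4, which takes part in opening the kappa locus, fell by 1.87 and 2.43. Of 10 recombination and end-joining genes, 2 were lower in the first comparison, Polm and Lig4. In the second, 3 were lower and 1 higher. Dntt, the terminal transferase that adds nucleotides at joins, was the third of those that fell, by 3.30 (adjusted p = 0.00982), and the one that rose was Xrcc5. Rag1 and Rag2 were called in neither. Of 6 pre-B cell receptor genes, Vpreb3, Cd79a and Cd79b were lower in Pax5+/-;Myd88+/- leukemias, and 0 were called in Pax5+/- leukemias.

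Cultured WT proB cells had far less immunoglobulin signal than sorted WT precursors, in a comparison that also differs in preparation. Calls fell on 15 of the 25 members, 14 lower and 1 (Trav14-1 10414953) higher, beside 9.95% of all probesets (6.21% lower and 3.75% higher), and 19 did not overlap, beside 46.8%. All 6 heavy-chain probesets were lower. Ighm/Ighv1-82 read 4.17 to 4.48 in the 4 WT cultures, below the sorted mean by a difference of -5.93 log2 (SE 0.57, adjusted p = 1.51e-09). The kappa segments were lower at 7 of 9, led by Igkv19-93 (10545177) at -5.23 (SE 0.73, adjusted p = 1.08e-06) and Igkv9-120 at -3.62 (SE 0.49, adjusted p = 7.08e-07). Every array of all 4 culture genotypes lay below every sorted array at all 15 immunoglobulin probesets. The share of all probesets that did so was not counted, and the 46.8% above is for WT cultures alone, in either direction. Preparation, marrow stage and culture cannot be told apart here.

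Between genotypes, the cultures differed at a minority of the members, but at larger shares than over all probesets. Pax5+/- cultures differed from WT cultures at 6 of 25, 5 higher and 1 lower, beside 1.08% of all probesets (0.618% higher and 0.46% lower), and 9 of 25 did not overlap, beside 10.2%. Ighm/Ighv2-4 was the one that fell, with 7.23, 7.28, 7.29 and 7.12 in Pax5+/- against 9.18, 8.69, 9.22 and 8.72 in WT cultures (-1.72, SE 0.11, adjusted p = 3.25e-08). The Igha probesets rose by 1.34 and 1.31 (adjusted p = 0.00113 and 0.000341). Igha/Ighv8-8 read 8.92, 9.09, 9.01 and 9.22 in Pax5+/- cultures, all above the WT arrays, which split into 8.28 and 8.38 (replicates 1 and 3) and 7.11 and 7.13 (replicates 2 and 4). Igkv10-96 rose by 1.12 and Igkv19-93 (10545177) by 1.11 (adjusted p = 0.00121 and 3.38e-06). Both differences were close to the fold limit, and fell below it without WT replicate 4 (1.00 and 0.96), that of Igkv10-96 also without WT replicate 2 (0.95). All 6 calls held when the close pairs of the WT cultures, or of both the WT and the Pax5+/- cultures, were averaged to 1 array each, and 1 of them, Trav14-1, held when all 32 arrays shared 1 estimate of the spread.

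Trav14-1 (10414953) was the largest of these differences. It read 9.12, 9.28, 9.20 and 9.25 in Pax5+/- cultures against 5.13, 5.63, 5.27 and 6.65 in WT cultures, 11.7-fold higher (3.54 log2, SE 0.23, adjusted p = 2.92e-08). Leukemias and sorted WT cells read 3.99 to 5.19. The other probeset named Trav14-1, 10414950, read 4.48 to 5.20 on all 32 arrays, so the 2 probesets of that name disagreed.

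Loss of 1 Myd88 allele on the Pax5+/- background went with changes at 2 of these probesets. Pax5+/-;Myd88+/- cultures differed from Pax5+/- cultures at 2 of 25 members, 1 higher and 1 lower, beside 0.819% of all probesets (0.352% higher and 0.466% lower), and 9 of 25 did not overlap, beside 7.97%. Trav14-1 (10414953) read 6.66, 6.79, 6.90 and 6.70, a difference of -2.45 (SE 0.23, adjusted p = 2.38e-06), and lay between the Pax5+/- and the WT arrays. Ighm/Ighv2-4 read 8.10, 8.40, 8.23 and 8.28, a rise of 1.02 (SE 0.11, adjusted p = 1.58e-05) that fell below the fold limit without Pax5+/- replicate 4 (0.99) or Pax5+/-;Myd88+/- replicate 2 (0.97).

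Pax5+/-;Myd88-/- cultures differed from Pax5+/- cultures at 4 of 25 members, 3 higher and 1 lower, beside 0.981% of all probesets (0.567% higher and 0.415% lower), and 9 of 25 did not overlap, beside 16.3%. The Trgv1 probeset of the T-cell receptor gamma locus, Trgj4 and Tcrg-C4 in the later annotation, read 12.39, 12.24, 12.29 and 12.24 in the Myd88-null cultures. The other 12 culture arrays read 4.79 to 5.37, the sorted WT cells 6.83, 6.70, 6.60 and 5.69 and the leukemias 4.92 to 5.96. The null cultures stood 7.09 log2 units above the Pax5+/- cultures (SE 0.07, adjusted p = 4.38e-19), and no array of any other group came within 5 log2 units. Trdv2-2, a delta-locus segment, read 6.16, 6.45, 6.28 and 6.29 in the null cultures, 5.81, 5.89, 5.58 and 5.88 in Pax5+/-;Myd88+/- cultures and 5.05 to 5.35 in the other cultures. Its rise in the null cultures was 1.08 (SE 0.08, adjusted p = 2.34e-07), and its difference in the heterozygous cultures (0.57, adjusted p = 0.00027) was under the fold limit. Ighm/Ighv2-4 rose by 1.22 and Trav14-1 (10414953) fell by 2.13, to 7.39, 6.97, 7.14 and 6.82.

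**Figure D5:**
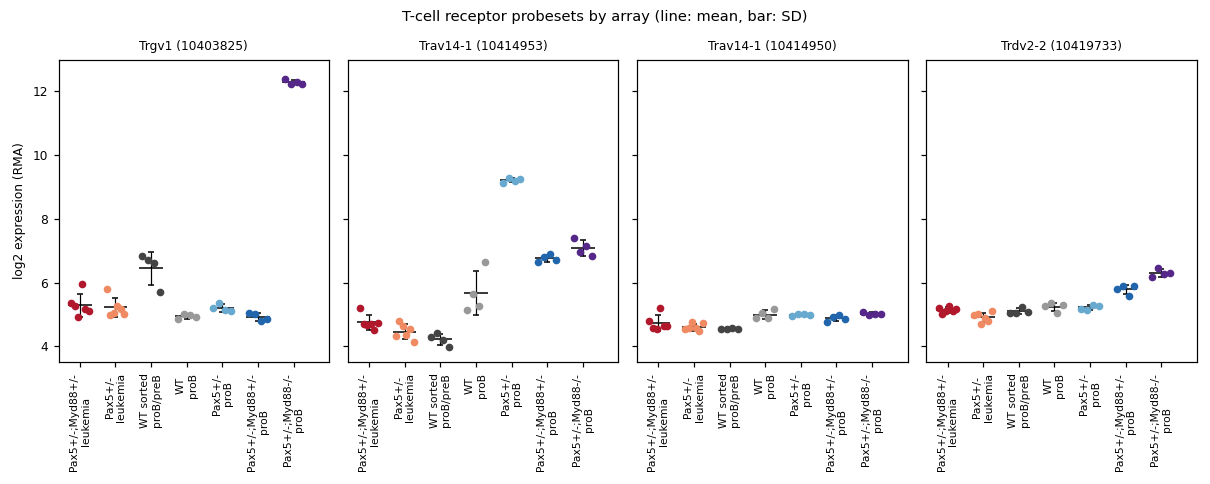
Log2 expression (vertical axis) of 4 T-cell receptor probesets in the 7 groups, with 1 point per array, a line at the group mean and a bar of 1 SD. The Trgv1 probeset (Trgj4 and Tcrg-C4 in the later annotation) is near 12 in the Pax5+/-;Myd88-/- cultures alone. The Trav14-1 probeset 10414953 is highest in Pax5+/- cultures while the other of that name is flat, and Trdv2-2 is highest in the Myd88-null cultures.

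Other gamma-locus probesets were also higher in the null cultures, without following Trgv1 in the other groups. Of the 58 probesets that name several segments, 3 were called in the null cultures, all higher, beside 0.981% of all probesets called in either direction. All 3 name Trgv4 and Trgv6, 2 of them with Trgv2, and they are named after their values were seen. Probeset 10403816 read 8.76 to 9.33 in the null cultures and 4.46 to 4.64 in Pax5+/- cultures (22.4-fold, adjusted p = 7.71e-09). It also read 6.70 to 8.06 in WT cultures. Probesets 10403821 and 10407940 rose 10.8-fold and 11.1-fold (adjusted p = 0.000615 and 0.000436), and at these the WT cultures, at means of 11.79 and 11.41, lay above the Pax5+/- cultures too. Pax5+/- leukemias averaged 9.67 and 8.98 at this pair, and Pax5+/-;Myd88+/- cultures reached 10.19 and 9.65, all with Trgv1 at its low level. T-cell markers did not share this rise. The averages of 13 such markers were 6.64 to 6.73 in the null and 6.54 to 6.67 in the Pax5+/- cultures, and 1 was called, Lat, which rose by 1.41. The CD3 chain genes Cd3e, Cd3d and Cd3g read 6.86, 5.48 and 5.55 on average in the null cultures against 6.93, 5.61 and 5.59.

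The remaining T-cell receptor members varied little. The 5 other single-name Tra probesets and Trav14-1 10414950 had group means within 0.48 log2 of each other, and those of Trbv1, which read 7.18 to 8.48 across all arrays, lay within 0.65. Trgv1 was lower in both leukemia groups than in sorted WT cells, with differences of -1.16 and -1.24 log2 (adjusted p = 0.00124 and 0.00134), and 1.52 lower in WT cultures. The sorted samples also had the highest NK-cell marker averages. Their averages of 13 T-cell markers, 6.98 to 7.09, lay within the range of the leukemias (6.62 to 7.31) and above that of the WT cultures (6.60 to 6.71). The part of these cells in the Trgv1 signal was not tested. The 58 probesets that name several segments were called lower at 10 and 5 in the leukemia groups against sorted cells, beside 4.3% and 1.72% of all probesets. They were called higher at 0 in either, beside 3.33% and 2.73%. In Pax5+/- against WT cultures 5 were higher and 2 lower, beside 0.618% and 0.46% of all probesets.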

How the data were processed

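The authors' deposited values were used: log2 gene-level expression on Affymetrix MoGene 1.0 ST arrays, summarized by robust multi-array average in Transcriptome Analysis Console against mouse build mm10, and written to 2 decimals for 32 arrays and 28944 probesets. Total RNA was extracted with TRIzol. Scanner files were not used here, so background correction and summarization could not be varied, and the sources do not state whether all arrays were normalized together. The platform annotation names 1 gene for 21789 probesets, several for 1621 and none for 5534.

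Each comparison was fitted in limma 3.58.1 (R 4.3.3), with lmFit and eBayes, on the groups of its experiment: 16 arrays for the leukemias and sorted cells, 16 for the cultures, and all 32 for WT cultures against sorted cells. P-values were adjusted by Benjamini-Hochberg over all 28944 probesets, with calls made where that p was under 0.05 and the change above 1 log2 unit. Spread was tested with limma on absolute deviations from the group median, scaled for group size. The scripts were tested on simulated data. Tests were two-sided. The number of arrays limits the precision.

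The members and lists were chosen with earlier results of these data known. Named members were all constant-region names, per comparison and locus the 2 largest called rises and 2 largest falls without overlap, per array and locus the segment with the largest gap above the next, and the 3 largest SDs per leukemia group; other members were named after their values were seen. Marker and pathway lists came from textbook knowledge. RefSeq coordinates (GRCm38.p6) were matched by symbol for all 25 members. Columns of other measurements numbered 0. Alternatives covered the arrays fitted, centring, normalization, a filter on dim probesets, the threshold, a replicate block and each array left out; the averaging of close WT and Pax5+/- culture pairs was chosen after seeing the data.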

Additional observations from a re-analysis of the deposited data

Results flagged for a closer look

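Among 175 combinations of a member and a group, 13 had 1 array far from the others by Dixon's ratio, and chance alone flags about 1 in 20. In Pax5+/-;Myd88+/- leukemias, replicate 2 was high at Igkv10-96 (10.29), Igkv4-91 (6.79) and Igkv19-93 10545182 (8.61), and replicate 1 at Trav14-1 10414953 (5.19). In Pax5+/- leukemias, replicate 5 was high at Igkv4-91 (7.76) and Igkv5-43 (8.92), and replicate 1 at Trgv1 (5.80). Sorted WT replicate 3 was high at Igkv4-91 (5.45). In the cultures, Pax5+/-;Myd88+/- replicate 3 was high at Ighm 10403069 (4.80), Pax5+/- replicate 4 at Trav7d-4 (4.81), and low arrays were WT replicate 4 at Igkv19-93 10545177 (5.92), Pax5+/- replicate 1 at Igkv5-43 (4.17) and Pax5+/-;Myd88-/- replicate 1 at Igkv6-20 (5.52).

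The difference between Pax5+/-;Myd88+/- and Pax5+/- samples was not the same in leukemias as in cultures at 3 members. The test was an interaction term in a limma fit of all 32 arrays, at an adjusted p under 0.05 without a fold limit. The share of all probesets that passed it was not counted, so the 3 are not read as unusual. The effect in leukemias minus that in cultures was 2.74 log2 for Trav14-1 10414953 (adjusted p = 1.97e-08), -0.34 for Trdv2-2 (adjusted p = 0.0243) and -1.74 for Igkv9-120 (adjusted p = 0.0477).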

How the results depend on the processing

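The 45 member differences called in the comparisons gave 771 values under the alternatives, of which 718 kept direction and call, 53 lost the call and 0 reversed. The count for Pax5+/-;Myd88+/- against Pax5+/- leukemias, 2, was 5 with all 32 arrays, 0 with only these groups fitted, 1 after a further quantile normalization and 4 at unadjusted p, and 0 to 7 with 1 array left out. Fitting all 32 arrays, which share the wider spread of the leukemias, cut the count for Pax5+/- against WT cultures from 6 to 1 and for Pax5+/-;Myd88+/- against Pax5+/- cultures from 2 to 1. Leaving out 1 array gave 8 to 11 and 4 to 6 members for the leukemias against sorted cells, 4 to 6, 1 to 2 and 4 to 4 for the culture genotypes and 15 to 15 for WT cultures against sorted cells. By correlation of deviations (-0.15 to 0.52), no comparison had every same-numbered pair above 0.1, so the numbers were not taken as pairs; Pax5+/-;Myd88-/- against Pax5+/- cultures came nearest (0.29, 0.19, 0.11 and 0.036). With the replicate block the counts were 9, 5, 1, 6, 2, 4 and 15 in the order of the comparisons above, beginning with the leukemias against sorted cells and ending with WT cultures against sorted cells. The spread test called 0 members under every alternative run. Variable segments standing apart, 5, 3 and 3, became 1, 1 and 0 at a gap over 2 log2 units, and 1 to 6, 2 to 7 and 1 to 3 with 1 array left out.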
